A study of Mus musculus with 17 samples.

Results

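The FOS, JUN and EGR families of early response factors were followed through splenic type 1 and type 2 conventional dendritic cells (cDC1s and cDC2s) that met living, apoptotic or necroptotic tumor cells. The 10 genes were chosen by name, Fos, Fosb, Fosl1, Fosl2, Jun, Junb, Jund, Egr1, Egr2 and Egr3, and each was matched by its Ensembl identifier, so that 10 of the 31091 genes in the count table are described here. All 10 had enough nonzero counts to be tested in every fit. The cells came from spleens of 8-week-old female C57BL/6JRj mice whose dendritic cells had been expanded by a B16-FLT3L tumor, which secretes the growth factor FLT3L. For each experiment, spleens of at least 2 mice were pooled. CD11c+ cells were cultured together for 6 h, with GM-CSF in every culture, in uncentrifuged medium of TC-1 cells, a mouse lung epithelial tumor line, and cDC1s and cDC2s were sorted afterwards. The medium came from wild-type cells that stayed alive (WT), from TC-1-iBimS cells dying by apoptosis (BimS) or from TC-1-iRIPK3 cells dying by necroptosis (RIPK3). All 3 lines had received the inducer cumate, and iBimS and iRIPK3 are clonal sublines, so the death mode and the clone cannot be told apart. There were 3 samples in each of the 6 groups except cDC2s with RIPK3 medium, which had 2, giving 9 cDC1 and 8 cDC2 samples. No source used here says whether replicates came from separate cultures or pools of mice, so p-values measure the spread between these samples, which may be technical.

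AP-1 is a dimer of basic leucine zipper proteins. FOS proteins (Fos, Fosb, Fosl1, Fosl2) bind DNA only with a partner, usually a JUN protein, whereas JUN proteins (Jun, Junb, Jund) can also pair with each other and with ATF, BATF and MAF proteins. The EGR proteins are zinc finger factors that bind GC-rich sites. Most of these genes are immediate early genes, which are transcribed within minutes of a signal through MAP kinases, the serum response factor SRF and CREB, and whose RNAs are short-lived. In dendritic cells, JUN proteins act with BATF3 and IRF8 at cDC1 genes, and AP-1 and EGR factors are known to respond to uptake, adhesion, stress and pattern recognition.

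Promoter sequence is shown for 4 genes that were higher with debris, Egr2 and Jun with both kinds, and Fos and Junb with RIPK3. The RefSeq promoter table (250 bases before each start, GRCm38.p6) held windows for 7 of the 10 genes. Each stretch printed matched the GRCm39 genome at 1 place and lies outside annotated exons of its own strand. Sequences read 5′ to 3′ toward the gene, and capitals mark the searched motifs, on either strand.
Egr2, chr10:67373569-67373689, plus strand: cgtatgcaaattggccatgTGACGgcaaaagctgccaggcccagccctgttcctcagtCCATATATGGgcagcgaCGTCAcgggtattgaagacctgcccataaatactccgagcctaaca
Jun, chr4:94940460-94940579, minus strand: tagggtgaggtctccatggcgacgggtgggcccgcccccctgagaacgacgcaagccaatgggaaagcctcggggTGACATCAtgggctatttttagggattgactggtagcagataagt
Fos, chr12:85520524-85520644, plus strand: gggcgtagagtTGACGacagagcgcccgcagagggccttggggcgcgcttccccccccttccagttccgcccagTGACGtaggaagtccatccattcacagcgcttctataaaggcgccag
Junb, chr8:85705378-85705497, minus strand: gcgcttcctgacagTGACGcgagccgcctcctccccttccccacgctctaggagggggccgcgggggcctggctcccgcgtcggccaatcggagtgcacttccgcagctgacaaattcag

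Egr2 carried a CArG box, the sequence recognized by SRF, at position -72 of the start shown, with the 5-base core of the CREB site, TGACG, at -111 and, on the opposite strand, at -55. A CArG box was found in 4 of the 5 Egr2 windows of the table, at -72, -72, -73 and -133 of their starts. Windows of nearby starts can hold the same site, so these need not be separate sites. No window of the other 6 genes held a CArG box, and 1.47% of all 32851 windows did. Jun carried TGACATCA, a variant AP-1 site known to be bound by JUN with ATF2, at -45, and 2.93% of all windows held this sequence. Fos had TGACG at -129 and -66, Junb at -106 and Fosb at -60. This short core was present in 4 of the 7 genes and in 17.8% of all windows. The EGR sequence GCGNGGGCG was found in Fosb and Fosl2 (4.7% of all windows). The full CREB site TGACGTCA (1.55%) and the AP-1 site TGANTCA (6.75%) were found in none of the 7. Both strands were searched, TGACG also lies within TGACGTCA, and a match describes letters, not binding. Sequence farther than 250 bases before a start was not searched, so a motif absent here may lie outside the window. Fosl1, Egr1 and Egr3 had no window.

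Each sample held between 16095159 and 21645289 counts. The sorted cells carried the markers of their labels. Of 9 cDC1 markers, 9 were higher in cDC1s (summed level 1428 to 1746 CPM per cDC1 sample, 99.0 to 131.6 CPM per cDC2 sample). Of 8 cDC2 markers, 8 were higher in cDC2s (283.6 to 372.8 against 2.90 to 5.24 CPM). CPM is the level of a gene relative to the library total, corrected by TMM, a scaling for differences in composition between samples. The cDC1 marker sum in cDC1s was 1562 to 1746 CPM with WT, 1454 to 1604 CPM with BimS and 1428 to 1493 CPM with RIPK3. Within cDC1s 3 of the 9 were called higher and 3 lower with each kind of debris. Of all genes, 7.31% were higher and 5.89% lower there with BimS, and 8.34% and 8.19% with RIPK3. Clec9a (0.26 with BimS and 0.24 with RIPK3) and Xcr1 (0.44 and 0.57) were higher with both, Tlr3 with BimS (0.62) and Cd8a with RIPK3 (0.55), while Irf8 (-0.75 and -0.82), Itgae (-0.45 and -0.84) and Wdfy4 (-0.18 and -0.41) were lower with both. Summed B-cell, T- and NK-cell and neutrophil markers stayed at or below 1.48, 1.23 and 4.19 CPM. The sum of 9 macrophage markers was 50.8 to 58.7 CPM in cDC1s and 32.6 to 61.8 CPM in cDC2s, most of it Cd68, which dendritic cells also express (27.6 to 53.4 CPM), while Adgre1 reached 5.13 CPM and C1qa, C1qb and C1qc at most 1.13, 1.88 and 1.77 CPM. Of the macrophage markers C1qc was called between media, lower with BimS in cDC1s (-1.61, edgeR adjusted p = 0.0343), and of the T- and NK-cell markers Cd3g, at most 0.685 CPM, lower with BimS in cDC2s (-2.15, adjusted p = 0.0342). Of the cDC2 markers Esam was called in cDC1s, at 0.150 to 1.89 CPM there, higher with BimS (2.04, adjusted p = 0.000332) and with RIPK3 (2.38, adjusted p = 1.57e-05), and it was higher with both in cDC2s (1.98, adjusted p = 0.000221, and 1.81, adjusted p = 0.0015). Within cDC2s 2 of the 8 cDC2 markers were called higher and 1 lower with BimS, and 2 higher and 3 lower with RIPK3. Of all genes, 3.8% were higher and 3.21% lower there with BimS, and 3.93% and 3.28% with RIPK3. Besides Esam, Clec4a4 was higher with both (0.48 and 0.63), Irf4 was lower with both (-1.16 and -1.52), and Clec10a (-0.98) and Cd209a (-0.50) were lower with RIPK3. The sum of 5 plasmacytoid markers was 35.1 to 47.6 CPM in cDC1s and 157.4 to 189.4 CPM in cDC2s, mostly Tcf4, with Siglech at most 0.685 CPM. Tcf4 was lower with both kinds of debris in cDC1s (-0.23 each, adjusted p = 0.0485 and 0.0487). The sum of 5 platelet and erythroid markers was 4.61 to 6.00 CPM in cDC1s with WT, 7.45 to 8.20 CPM with BimS, 6.84 to 8.29 CPM with RIPK3 and 6.00 to 16.2 CPM in cDC2s. Pf4, a platelet chemokine gene, rose in cDC1s with BimS (3.28, adjusted p = 2.3e-12) and RIPK3 (2.96, adjusted p = 6.48e-11). Of the other platelet genes in the list, Gp9 was at most 0.0509 CPM in cDC1s. Itga2b was at 3.78 to 5.59 CPM in cDC1s and 5.95 to 12.9 CPM in cDC2s. The part of these markers in the results for the 10 genes was not tested. Of a list of TC-1 markers, Krt8 was at 0 to 3 counts and Cldn4 at 0 to 1. Others were present at low levels. Epcam was at 0.718 to 1.44 CPM over all samples, Krt18 at 0.691 to 1.17 CPM in cDC1s and Sparc at 0.118 to 1.21 CPM. Whether TC-1 cells express these genes is not given in the sources used here. Over the whole TC-1 marker list the sum was 2.35 to 3.30 CPM in cDC1s and 19.0 to 39.2 CPM in cDC2s, the latter mostly Cdh1 (16.5 to 37.5 CPM), and no gene of this list was called between media.

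The families differed widely in level. Per kilobase of exon, which allows genes to be compared, Junb had the highest mean of the 10 in all 6 groups and Jund the next, while the 3 EGR genes were at places 7 to 10 in every group. In cDC1s with WT medium the order of mean levels in CPM per kilobase was Junb 254 ± 7.90 (SD, n = 3), Jund 146 ± 3.82, Fos 49.2 ± 1.95, Fosl2 24.1 ± 2.56, Jun 11.6 ± 0.440, Fosb 7.32 ± 0.474, Egr2 0.614 ± 0.0160, Egr1 0.542 ± 0.0676, Egr3 0.505 ± 0.0110 and Fosl1 0.328 ± 0.10. Only the neighbors Egr1 and Egr3 overlapped in this order. In cDC2s with WT medium it was Junb 245 ± 18.5, Jund 86.2 ± 6.74, Fosl2 67.0 ± 12.1, Jun 56.7 ± 2.90, Fos 31.6 ± 0.939, Fosl1 1.90 ± 0.155, Fosb 1.71 ± 0.229, Egr2 0.798 ± 0.0958, Egr1 0.433 ± 0.0703 and Egr3 0.0578 ± 0.0146. Here Fosl2 overlapped with Jun, and Fosl1 with Fosb. Debris moved Fosl1 most in this order, from the last of the 10 places in cDC1s with WT medium to place 8 with BimS and place 7 with RIPK3. In cDC2s it was at place 6 with all 3 media, and with BimS the means of Jund (80.0) and Fosl2 (79.5) lay within their spread. Egr1 and Egr3 exchanged places between media in cDC1s and kept places 9 and 10 in cDC2s. Summed over the family, JUN genes reached 358.5 to 429.5 CPM per kilobase in the cDC1 samples, FOS genes 80.0 to 107.8 and EGR genes 1.59 to 6.00.

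**Figure D1:**
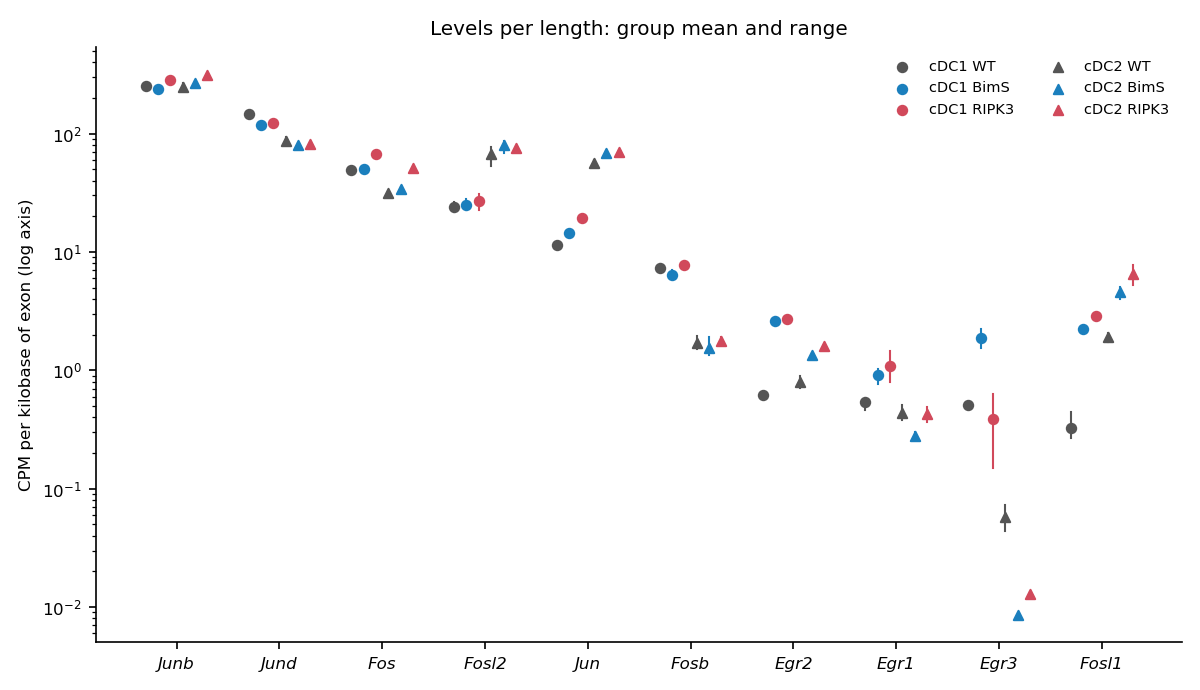
Level of each gene per length, with CPM per kilobase of exon on a log axis, for the 6 groups (circles cDC1s, triangles cDC2s, color by medium). Symbols are group means and bars run from the lowest to the highest sample (no bar where a sample was at 0). Junb stands at 238 to 314.5 CPM per kilobase in all groups, and Egr3 in cDC2s lies below 0.1.

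The first question was whether the cells changed these genes when the medium held dead tumor cells. In cDC1s with BimS debris, 5 of the 10 genes rose against WT medium (Fosl1, Egr2, Egr3, Egr1 and Jun) and 1 fell (Jund), by edgeR's quasi-likelihood test with Benjamini-Hochberg adjustment at 0.05. Over all 19513 genes tested the same call was made for 7.31% upward and 5.89% downward. With RIPK3 debris, 6 rose (Fosl1, Egr2, Egr1, Jun, Fos and Junb) and 1 fell (Jund), against 8.34% of all genes higher and 8.19% lower. These comparisons share the WT samples. Between RIPK3 and BimS debris, 4 genes were higher with RIPK3 (Fos, Fosb, Jun and Junb) and 1 lower (Egr3), against 1.94% and 2.21% of all genes. The median absolute log2 fold change of the 10 genes was 0.31, 0.42 and 0.27 in these comparisons, and that of all genes tested was 0.22, 0.25 and 0.17. In bulk RNA, a change in every cell and a change in the share of cells expressing a gene cannot be told apart.

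In cDC2s, 3 of the 10 genes rose with BimS debris (Fosl1, Egr2 and Jun) and 0 fell, against 3.8% of 19239 genes higher and 3.21% lower. At an unadjusted p under 0.05, Egr1 and Egr3 had lower fitted values. With RIPK3 debris 5 rose (Fosl1, Egr2, Fos, Junb and Jun) and 0 fell, against 3.93% and 3.28%. No gene had a lower value at an unadjusted p under 0.05 there. Between the debris types only Fos was called, higher with RIPK3, against 0.161% of all genes higher and 0.218% lower. In these comparisons of cDC2s DESeq2 called 0 of the 10 genes lower as well, and between the debris types none had a lower value at an unadjusted p under 0.05. Blocking on replicate numbers, since same-numbered samples of a cell type deviated together, 5 genes were called with BimS, among them Fosl2 (log2 fold change 0.25, adjusted p = 1.58e-09) and Junb (0.13, adjusted p = 0.00573). Between the debris types 4 were then called, Fos, Fosl1 (0.52, adjusted p = 0.00103), Junb (0.27, adjusted p = 1.29e-07) and Fosl2, which was lower with RIPK3 (-0.19, adjusted p = 0.000382). Under the block 4103 and 2755 of the 19239 genes were called in these comparisons. The median absolute log2 fold change of the 10 genes in the fit without the block was 0.26 with BimS, 0.34 with RIPK3 and 0.25 between the debris types, against 0.25, 0.28 and 0.22 over all genes.

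**Figure D2:**
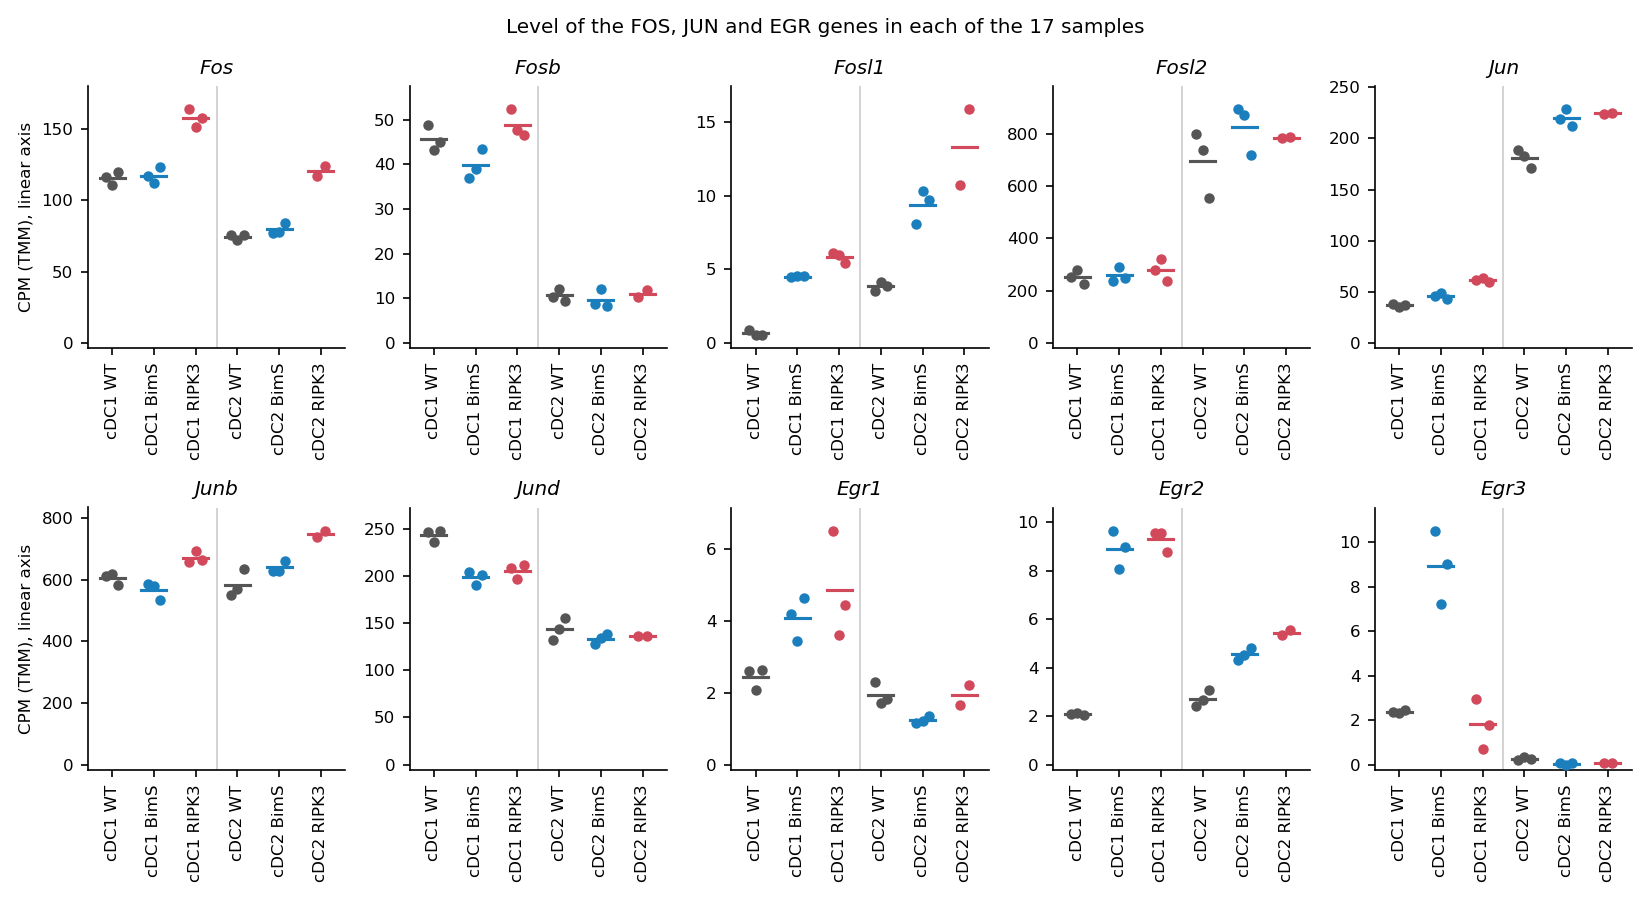
CPM of each gene in each of the 17 samples, on linear axes from 0, with points for samples and lines for group means. Fos is at 151 to 164 CPM in cDC1s with RIPK3 debris and at most 123 CPM in the other cDC1 samples, while Egr3 is at 7.21 to 10.5 CPM only in cDC1s with BimS debris.

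Fos (ENSMUSG00000021250, chr12:85520658-85524047, plus strand, GRCm39), the founding FOS gene, was higher with necroptotic debris in both cell types. In cDC1s its level was 117, 111 and 120.1 CPM with WT medium, 117, 111.9 and 123 CPM with BimS and 164, 151 and 158 CPM with RIPK3. The RIPK3 samples lay above all others, and the WT and BimS samples overlapped. The log2 fold change against WT was 0.44 with RIPK3 (SE 0.0526, edgeR adjusted p = 3.81e-08) and 0.02 with BimS (95% interval -0.09 to 0.13, adjusted p = 0.904), and that of RIPK3 against BimS was 0.42 (adjusted p = 2.01e-06). In cDC2s the levels were 75.9, 71.9 and 75.6 CPM with WT, 77.4, 77.8 and 84.0 CPM with BimS, and 117 and 124 CPM with RIPK3. Again the RIPK3 samples stood apart, with log2 fold changes of 0.70 against WT (SE 0.0879, adjusted p = 1.85e-05) and 0.60 against BimS (SE 0.0879, adjusted p = 0.00265). The call between debris types in cDC2s was lost without RIPK3 replicate 1 (0.64, adjusted p = 0.0539) or replicate 2 (0.56, adjusted p = 0.233). By limma on log2 counts without normalization, the comparison of the debris types missed the threshold in cDC1s (0.34, adjusted p = 0.0545) and cDC2s (0.49, adjusted p = 0.105).

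Fosl1 (ENSMUSG00000024912, chr19:5497575-5505974, plus strand), which encodes FRA1, a FOS protein without the transactivation domain of FOS, was the gene of the 10 with the largest rise in either cell type. In cDC1s it went from 0.902, 0.559 and 0.541 CPM with WT medium (11 to 18 counts) to 4.49, 4.53 and 4.53 CPM with BimS and 6.09, 5.98 and 5.42 CPM with RIPK3. No sample with debris overlapped with WT. The log2 fold changes were 2.76 (SE 0.219, edgeR adjusted p = 3.13e-12) and 3.12 (SE 0.212, adjusted p = 3.99e-14). In cDC2s it stood at 3.54, 4.17 and 3.86 CPM with WT, 8.09, 10.3 and 9.71 CPM with BimS and 10.8 and 15.9 CPM with RIPK3, changes of 1.28 (SE 0.169, adjusted p = 4.08e-05) and 1.79 (SE 0.180, adjusted p = 1.17e-06). Every sample with RIPK3 lay above every sample with BimS in both cell types, but the debris types did not pass the test, with log2 differences of 0.36 in cDC1s (95% interval 0.05 to 0.67, adjusted p = 0.213) and 0.51 in cDC2s (0.16 to 0.86, adjusted p = 0.296, and called only under the replicate block). The gene overlaps Ccdc85b on the opposite strand, and whether the counting used strand is not given in the sources used here.

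Fosb and Fosl2 were the FOS genes with little difference between media. Fosb (ENSMUSG00000003545, chr7:19036621-19043976, minus strand), whose protein is close to FOS, was at 43.1 to 48.9 CPM with WT, 37.0 to 43.6 CPM with BimS and 46.6 to 52.3 CPM with RIPK3 in cDC1s. The RIPK3 samples lay above the BimS samples by 0.29 on the log2 scale (SE 0.0685, edgeR adjusted p = 0.00882). This call was lost without BimS replicate 1 (0.24, adjusted p = 0.0622) and by limma on log2 counts (0.21, adjusted p = 0.445). Against WT, the BimS value of Fosb was -0.20 (adjusted p = 0.0532), which the replicate block called (-0.19, adjusted p = 0.0104), as did the fits without WT replicate 2 (-0.23, adjusted p = 0.0411), BimS replicate 3 (-0.27, adjusted p = 0.0156) or RIPK3 replicate 1, 2 or 3 (each -0.20, adjusted p from 0.0154 to 0.0441). Fosb in cDC2s was at 8.41 to 12.2 CPM over all media, with overlapping groups. Fosl2 (ENSMUSG00000029135, chr5:32292707-32315186, plus strand) encodes FRA2 and was the highest FOS gene per length in cDC2s. It ranged from 555.5 to 892 CPM there and from 224 to 319.5 CPM in cDC1s, and its media overlapped in both cell types. Its log2 fold change with BimS in cDC2s had a 95% interval of -0.02 to 0.51, and the replicate block called it there and with RIPK3 in cDC1s (0.14, adjusted p = 0.0089).

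Jun (ENSMUSG00000052684, chr4:94937271-94940459, minus strand), which encodes c-JUN, a strong activator among the JUN proteins, was lowest with WT, higher with BimS and highest with RIPK3 in cDC1s. It was at 38.3, 35.5 and 36.9 CPM with WT medium, 45.8, 49.0 and 43.3 CPM with BimS and 61.6, 64.0 and 59.7 CPM with RIPK3. The 3 groups did not overlap. The log2 fold changes were 0.32 for BimS (SE 0.0628, edgeR adjusted p = 0.000251), 0.74 for RIPK3 (SE 0.0620, adjusted p = 8.94e-12) and 0.42 for RIPK3 against BimS (SE 0.0610, adjusted p = 2.41e-05). In cDC2s the levels were 189, 183 and 171 CPM with WT, 219, 228 and 212 CPM with BimS and 224 and 225 CPM with RIPK3. Both kinds of debris lay above WT and overlapped with each other, with log2 fold changes of 0.28 (SE 0.0772, adjusted p = 0.033) and 0.31 (SE 0.0858, adjusted p = 0.0292), and a difference between debris types of 0.03 (95% interval -0.15 to 0.22). The cDC2 calls lay near the threshold. For BimS the call was lost without WT replicate 2 or 3, BimS replicate 1 or 2 or RIPK3 replicate 1 or 2 (0.24 to 0.29, adjusted p from 0.0503 to 0.159), and for RIPK3 without WT replicate 2 or RIPK3 replicate 1 or 2 (0.31 to 0.32, adjusted p from 0.091 to 0.193). Limma on log2 counts made no call for Jun with BimS in cDC1s (0.28, adjusted p = 0.103), between debris types in cDC1s (0.34, adjusted p = 0.0847), or in cDC2s (0.21 with BimS, adjusted p = 0.481, and 0.14 with RIPK3, adjusted p = 0.652).

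Junb (ENSMUSG00000052837, chr8:85701113-85705359, minus strand), whose protein is a weaker activator than JUN at many AP-1 sites, was the highest of the 10 genes per length and was higher with RIPK3 debris. In cDC1s it was at 611, 620 and 584 CPM with WT, 585, 579.5 and 534 CPM with BimS and 657, 693 and 665 CPM with RIPK3. The RIPK3 samples were the highest of the cDC1 samples. Log2 fold changes of RIPK3 were 0.15 against WT (SE 0.0464, edgeR adjusted p = 0.0249) and 0.24 against BimS (SE 0.0464, adjusted p = 0.0011), and BimS was not called against WT (-0.09, adjusted p = 0.217). In cDC2s it reached 550.1, 569 and 634 CPM with WT, 629, 629 and 662 CPM with BimS and 739 and 758 CPM with RIPK3. The RIPK3 samples were again the highest, by 0.36 on the log2 scale against WT (SE 0.0847, adjusted p = 0.00996). The call against WT was lost in cDC1s without WT replicate 1 or 3 or RIPK3 replicate 2 (0.12 to 0.15, adjusted p from 0.0641 to 0.165) and in cDC2s without WT replicate 2 or RIPK3 replicate 1 or 2 (0.35 to 0.37, adjusted p from 0.0651 to 0.115). Limma on log2 counts called Junb in none of these comparisons (adjusted p = 0.914, 0.534 and 0.491). Junb overlaps Prdx2 on the opposite strand.

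Jund (ENSMUSG00000071076, chr8:71151599-71153265, plus strand), the JUN gene that many resting cells express constitutively, was the only gene of the 10 that fell with both kinds of debris in cDC1s. Its levels were 247, 236 and 248 CPM with WT, 204, 191 and 201 CPM with BimS and 208, 197 and 212 CPM with RIPK3. All samples with debris were below all WT samples, and the debris types overlapped. The log2 fold changes were -0.29 (SE 0.0486, edgeR adjusted p = 2.15e-05) and -0.25 (SE 0.0487, adjusted p = 0.000196). In cDC2s it was at 133 to 155 CPM with WT, 128 to 139 CPM with BimS and 136 to 137 CPM with RIPK3, overlapping throughout, with values of -0.11 (95% interval -0.28 to 0.06) and -0.07 (-0.26 to 0.12). Heat shock genes, which respond to protein damage, moved beside the RIPK3 result: of 16 in a list, 8 were higher and 0 lower with RIPK3 than with BimS in cDC1s (1.94% and 2.21% of all genes). Against WT, 10 were higher and 1 lower with RIPK3 and 5 and 3 with BimS (8.34% and 8.19%, and 7.31% and 5.89% of all genes). In cDC1s their summed level was 8691 to 9210 CPM with RIPK3 and 7820 to 7952 CPM with BimS (8143 to 8571 CPM with WT). In cDC2s 4 were higher and 0 lower with RIPK3 than with WT (3.93% and 3.28% of all genes), 2 were higher and 1 lower with BimS (3.8% and 3.21%), and 0 were called between the debris types, with sums of 6985 to 7640 CPM with WT, 7083 to 7742 CPM with BimS and 7604 to 8595 CPM with RIPK3. Their part in the differences of Fos, Fosb, Jun and Junb was not tested.

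**Figure D3:**
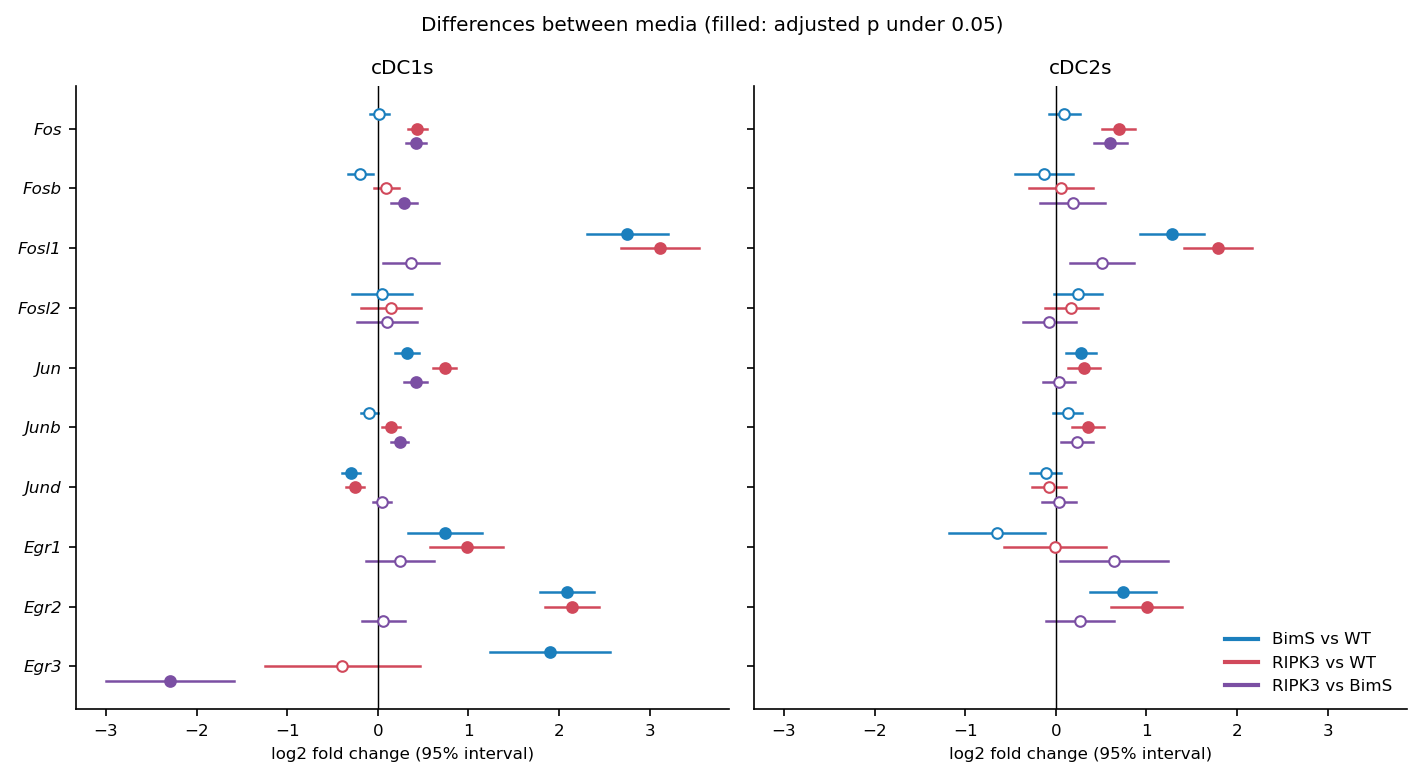
Log2 fold changes between media with 95% intervals for each gene, in cDC1s (left) and cDC2s (right), filled where the adjusted p was under 0.05. Fosl1 and Egr2 lie to the right of 0 with either kind of debris in both panels, and Egr3, not drawn for cDC2s because of 0 to 6 counts per sample, lies at 1.90 with BimS and -0.39 with RIPK3 in cDC1s.

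Egr2 (ENSMUSG00000037868, chr10:67371305-67378018, plus strand), a factor of macrophage identity that also restrains T-cell activation, rose with both kinds of debris in both cell types. In cDC1s it was at 2.11, 2.14 and 2.03 CPM with WT (42 to 45 counts), 9.64, 8.06 and 8.96 CPM with BimS and 9.56, 9.58 and 8.76 CPM with RIPK3. The debris samples overlapped with each other and all exceeded WT. The log2 fold changes were 2.09 (SE 0.146, edgeR adjusted p = 1.23e-13) and 2.15 (SE 0.146, adjusted p = 3.83e-14), and the debris types differed by 0.06 (95% interval -0.18 to 0.30). In cDC2s the levels were 2.41, 2.68 and 3.06 CPM with WT, 4.32, 4.51 and 4.80 CPM with BimS and 5.34 and 5.54 CPM with RIPK3. These groups did not overlap, with changes of 0.74 (SE 0.174, adjusted p = 0.0107) and 1.00 (SE 0.189, adjusted p = 0.00152) against WT and 0.26 (-0.11 to 0.64, adjusted p = 0.724) between the debris types. By limma on log2 counts the BimS change in cDC2s missed the threshold (0.66, adjusted p = 0.0616).

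Egr3 (ENSMUSG00000033730, chr14:70314350-70320063, plus strand), a close relative of Egr2, separated the debris types in cDC1s. It was at 2.36, 2.34 and 2.44 CPM with WT (46 to 54 counts), 10.5, 7.21 and 9.01 CPM with BimS (153 to 206 counts) and 2.97, 0.709 and 1.79 CPM with RIPK3 (14 to 58 counts). The BimS samples lay above every other sample, while WT and RIPK3 overlapped and the RIPK3 samples differed among themselves. On the log2 scale BimS exceeded WT by 1.90 (SE 0.297, edgeR adjusted p = 0.00137), whereas the value for RIPK3 was -0.39 against WT (95% interval -1.25 to 0.46, adjusted p = 0.615) and -2.29 against BimS (SE 0.317, adjusted p = 0.00244). Without RIPK3 replicate 1, Egr3 was called lower with RIPK3 than with WT (-0.97, adjusted p = 0.0171), and so it was by limma on log2 counts (-0.71, adjusted p = 0.00937). In cDC2s the gene was near the limit of detection, with 4, 6 and 5 counts with WT, 1, 0 and 1 with BimS and 1 and 1 with RIPK3. Summed over samples and scaled to library size, the WT level was 7.15 times that with BimS (95% exact interval 1.66 to 64.4) and 4.43 times that with RIPK3 (1.03 to 39.9). These intervals cover counting error only, and by edgeR neither difference was called (adjusted p = 0.0978 and 0.278). Limma called the BimS difference on log2 counts and on log2 CPM (adjusted p = 0.0478 and 0.0395).

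Egr1, the most studied immediate early EGR gene, rose with both kinds of debris in cDC1s and was not called in cDC2s. It was at 2.61, 2.09 and 2.62 CPM with WT (41 to 58 counts), 4.18, 3.44 and 4.63 CPM with BimS and 6.50, 3.60 and 4.44 CPM with RIPK3. All debris samples were above WT, and RIPK3 replicate 1 was the highest. The log2 fold changes were 0.74 (SE 0.201, edgeR adjusted p = 0.00971) and 0.98 (SE 0.198, adjusted p = 0.000329). The BimS call was lost without WT replicate 2 (0.64, adjusted p = 0.0546) or BimS replicate 3 (0.64, adjusted p = 0.0641). In cDC2s it was at 2.31, 1.71 and 1.83 CPM with WT, 1.16, 1.22 and 1.36 CPM with BimS and 1.65 and 2.21 CPM with RIPK3. The BimS samples were the lowest, a value of -0.65 (95% interval -1.18 to -0.12, adjusted p = 0.155) that was not called, and RIPK3 overlapped with WT (-0.01, -0.57 to 0.56). Each sample of cDC2s held only 19 to 45 counts of Egr1.

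Whether the cell types answered the media differently was tested directly as the interaction of cell type and medium, given as the response in cDC1s minus that in cDC2s. For BimS against WT, 4 of the 10 genes had a more positive response in cDC1s and 0 a more negative one, against 0.561% and 0.309% of 19082 genes. They were Fosl1 (1.47, SE 0.289, edgeR adjusted p = 0.00645), Egr2 (1.34, SE 0.212, adjusted p = 0.000495), Egr1 (1.39, SE 0.335, adjusted p = 0.0378) and Egr3 (fitted value 4.54, adjusted p = 0.0293, resting on 0 to 6 counts per cDC2 sample and no measure of size). For RIPK3 against WT, 3 were more positive and 0 more negative, against 0.66% and 0.477% of all genes. More negative values with an unadjusted edgeR p under 0.05 were those of Fos and Junb for RIPK3 (-0.27 and -0.22) and of Junb for BimS (-0.23), and DESeq2 called none of them. The RIPK3 calls were Fosl1 (1.32, SE 0.293, adjusted p = 0.017), Egr2 (1.13, SE 0.222, adjusted p = 0.00493) and Jun (0.42, SE 0.0958, adjusted p = 0.0223). For RIPK3 against BimS 0 of 10 were called by edgeR in either direction, against 0% more positive and 0.0314% more negative of all genes. Jun there had a difference of 0.38 (SE 0.0953, unadjusted p = 0.000501, adjusted p = 0.433) and was the only one of the 10 at an unadjusted p under 0.05, and DESeq2 called 0 as well, while the fit with the replicate block called Jun (0.40, adjusted p = 0.0277). For Fos the responses to RIPK3 differed by -0.27 (95% interval -0.46 to -0.07, adjusted p = 0.28), larger in cDC2s, not called by edgeR without the block and called with it (-0.29, adjusted p = 0.0415). Fosb, Fosl2 and Jund were called in none of these interactions, with values of -0.07, -0.20 and -0.19 for BimS and 0.03, -0.04 and -0.18 for RIPK3 against WT. Most of these interaction calls were lost when single samples were left out, as given in the closing section, and Egr2 was called in each such fit for both kinds of debris.

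**Figure D4:**
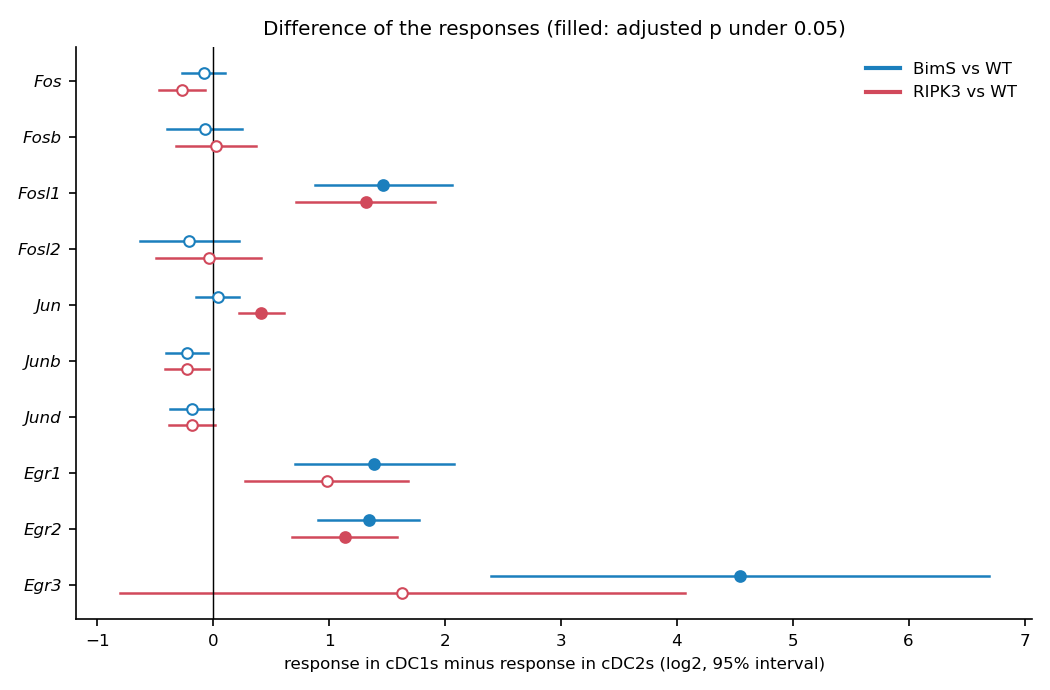
Response in cDC1s minus response in cDC2s on the log2 scale with 95% intervals, for BimS and RIPK3 against WT, filled where the adjusted p was under 0.05. Fosl1, Egr1, Egr2 and Egr3 lie above 0 for BimS (1.34 to 4.54), and the FOS genes other than Fosl1 lie within 0.27 of 0.

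Across media, all 10 genes differed between the cell types, 6 higher in cDC1s and 4 higher in cDC2s, in a comparison in which 30.4% of 19082 genes were higher in cDC1s and 29.4% lower. Higher in cDC1s were Fosb (log2 fold change 2.07, SE 0.0663, edgeR adjusted p = 2.89e-22), Egr1 (1.08, adjusted p = 7.3e-06), Jund (0.63, adjusted p = 2.37e-14), Egr2 (0.55, adjusted p = 0.000941), Fos (0.52, adjusted p = 4.24e-12) and Egr3 (adjusted p = 1.99e-08). With WT medium, Egr3 had 147 counts in the 3 cDC1 samples and 15 in the 3 cDC2 samples, a ratio of 8.83 (95% exact interval 5.18 to 16.2, which covers counting error only). Higher in cDC2s were Jun (-2.17, SE 0.0517, adjusted p = 1.63e-25), Fosl2 (-1.57, SE 0.0819, adjusted p = 1.38e-11), Fosl1 (-1.38, SE 0.146, adjusted p = 1.68e-08) and Junb (-0.10, SE 0.0414, adjusted p = 0.0302). Jun in cDC2s was at 171 to 228 CPM against 35.5 to 64.0 CPM in cDC1s. For Egr2 the direction depended on the medium: with WT it was lower in cDC1s (2.09 ± 0.0545 CPM) than in cDC2s (2.72 ± 0.326 CPM), but higher with debris, with BimS 8.89 ± 0.795 and 4.54 ± 0.239 CPM, and with RIPK3 9.30 ± 0.470 and 5.44 ± 0.136 CPM (n = 2). For Egr1 the cell types overlapped with WT (2.44 ± 0.304 CPM in cDC1s and 1.95 ± 0.316 CPM in cDC2s) and did not overlap with debris. Its levels with BimS were 4.09 ± 0.60 and 1.245 ± 0.106 CPM, and with RIPK3 4.84 ± 1.49 and 1.93 ± 0.396 CPM (n = 2). For Junb the means with WT were 605 ± 18.8 CPM (cDC1s) and 584 ± 43.9 CPM (cDC2s). Its call was lost with no filter (-0.09, adjusted p = 0.0654), turned in sign by limma on log2 counts (0.09, adjusted p = 0.219), and lost without cDC1 WT replicate 3, BimS replicate 2 or 3 or RIPK3 replicate 1, or cDC2 BimS replicate 3 or RIPK3 replicate 1 or 2 (-0.10 to -0.09, adjusted p from 0.0509 to 0.0831).

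Genes that act with these factors were read from lists chosen beside them. Of 14 dimer partners (ATF, BATF, MAF and JDP2), 7 rose and 1 fell with BimS (7.31% and 5.89% of all genes) and 7 rose and 0 fell with RIPK3 (8.34% and 8.19%) in cDC1s. Of 13 tested in cDC2s 4 rose with BimS and 5 with RIPK3 (3.8% and 3.93% of all genes), and 0 fell. Among partners with a mean log2 CPM of 3 or more the largest changes were those of Mafg, a small MAF that pairs with NRF2 (1.30 with RIPK3 in cDC1s, edgeR adjusted p = 2.1e-21, and 1.03 in cDC2s, adjusted p = 5.28e-08), the stress factor Atf3 (1.16 in cDC1s, adjusted p = 1.37e-18) and Jdp2, an AP-1 repressor (0.82 in cDC2s, adjusted p = 7.19e-06). Atf3 was higher with RIPK3 than with BimS in cDC1s (0.59, adjusted p = 3.31e-09) and in cDC2s (0.77, adjusted p = 0.0107). Of the other EGR gene and the NAB corepressors, which bind EGR proteins and limit them, between media only Nab2 was called, lower with BimS in cDC1s (-0.48, adjusted p = 0.0385).

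The shares of all genes that rose and fell with RIPK3 were 8.34% and 8.19% in cDC1s and 3.93% and 3.28% in cDC2s, and with BimS 7.31% and 5.89%, and 3.8% and 3.21%. Of 6 genes of SRF and its cofactors, 1 rose and 3 fell with RIPK3 in cDC1s, where Elk3 fell by 0.65 (edgeR adjusted p = 0.000128) and Mrtfa, an actin-regulated cofactor, by 0.58 (adjusted p = 6.05e-12) on the log2 scale. With BimS 2 rose and 1 fell in cDC1s. In cDC2s 1 rose and 1 fell with RIPK3 and 2 rose and 0 fell with BimS. Between the debris types only Mrtfb was called there, lower with RIPK3 than with BimS (-0.65, adjusted p = 0.0415). Of all genes in cDC2s, 0.161% were higher and 0.218% lower in that comparison. In cDC1s 0 of the 6 were higher and 2 lower with RIPK3 than with BimS (1.94% and 2.21% of all genes). Of 7 genes of CREB and its coactivators, 1 rose with RIPK3 in each cell type, Crtc1 in cDC1s (0.50, adjusted p = 0.00111) and Crem, itself an early response gene, in cDC2s (0.38, adjusted p = 0.00464), and 0 fell. With BimS 1 rose and 1 fell in cDC1s and 1 rose and 0 fell in cDC2s. Between the debris types 1 was higher and 0 lower with RIPK3 in cDC1s, and 0 were called in cDC2s. Of 16 MAP kinase genes, 2 rose and 2 fell with RIPK3 in cDC1s, and 3 rose and 1 fell in cDC2s. With BimS 3 rose and 1 fell in cDC1s and 2 rose and 1 fell in cDC2s. Between the debris types 0 were higher and 2 lower with RIPK3 in cDC1s, and 0 were called in cDC2s. Mapk14, which encodes p38 alpha, fell with RIPK3 in both (-0.77, adjusted p = 4.32e-11, and -0.77, adjusted p = 0.000339) and with BimS in both (-0.68, adjusted p = 8.52e-10, and -0.65, adjusted p = 0.000511). Mapk9, which encodes the JUN kinase JNK2, rose with either kind of debris, by 0.66 with BimS and 0.68 with RIPK3 in cDC1s (adjusted p = 6.41e-12 and 2.61e-12) and by 0.52 and 0.33 in cDC2s (adjusted p = 0.000146 and 0.0219).

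Of 35 other immediate early genes, 12 rose and 5 fell with BimS (7.31% and 5.89% of all genes) and 14 rose and 4 fell with RIPK3 (8.34% and 8.19%) in cDC1s, and 7 were higher and 1 lower with RIPK3 than with BimS (1.94% and 2.21%). In cDC2s 11 rose and 3 fell with BimS (3.8% and 3.21%), 11 rose and 2 fell with RIPK3 (3.93% and 3.28%), and 2 were higher and 0 lower with RIPK3 than with BimS (0.161% and 0.218%). Their median log2 fold change lay between 0.06 and 0.17 in these 6 comparisons, and that of all genes between -0.02 and 0.00. The largest changes with RIPK3 were those of Tiparp, a target of the aryl hydrocarbon receptor (2.37 in cDC1s, edgeR adjusted p = 1.12e-27, and 2.34 in cDC2s, adjusted p = 0.00644), Cebpb in cDC1s (1.75, adjusted p = 0.000322) and the kinase gene Sgk1 in cDC2s (2.10, adjusted p = 2.37e-11). Among heat shock genes, Hspa1b and Hspa1a rose most with RIPK3 in cDC1s (2.05, adjusted p = 0.00374, and 1.96, adjusted p = 0.00326), as near-identical copies whose reads may have been divided between them.

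The genes most like the members over the 17 samples were found from log2 CPM after the mean of the cell type was subtracted, among genes averaging at least 3 on that scale. The samples share media and sorts, so these values describe the data and carry no test. Fosl1 and Egr2 had the same nearest gene, Srxn1, which encodes the antioxidant enzyme sulfiredoxin (Pearson r = 0.98, Spearman rho = 0.94 for Fosl1, and 0.99 and 0.97 for Egr2). For Egr2 the surface receptor genes Trem4 (r = 0.99, rho = 0.92) and Clec4n (r = 0.99, rho = 0.94) followed. Fos was most like the clock gene Per1 (r = 0.95, rho = 0.77), Egr1 like the orphan receptor gene Nr4a1 (r = 0.86, rho = 0.93) and Jun like Tpp2 (r = 0.97, rho = 0.98). For Jund it was Rps6ka1 (r = 0.91, rho = 0.85), for Fosb Cyfip2 (r = 0.84, rho = 0.85) and for Egr3 Stat5a (r = 0.81, rho = 0.74).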

How the data were processed

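Polyadenylated RNA of 17 samples was sequenced as paired-end reads. Per the methods and the submitters' processing notes, the authors trimmed reads with SeqPurge, aligned them to GRCm39 with STAR 2.7.10a and counted them with gensum. The deposited counts per gene, without normalization, were used. The deposited normalized table was not used. Of 31239 lines, 148 without an identifier (0.0258% to 0.0366% of counts) were left out. Of 31091 identifiers, 30854 matched GENCODE M39, which gave symbols and exon lengths.

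Groups were taken from the labels. The cDC1 and the cDC2 samples were fitted separately, and all samples together for the cell types (medium as a term) and the interactions, by edgeR 4.0.16 (quasi-likelihood, robust, TMM) in R 4.3.3 after genes with counts of 0 in more than 50% of the samples of a fit were dropped. P-values were adjusted over all genes by Benjamini-Hochberg (threshold 0.05). Log2 CPM used a prior count of 2. Groups with at most 3 counts per sample were treated as at the floor, with 95% exact intervals. The fits were also run on simulated counts, in which only well-counted genes changed, by more than many changes reported here. That run does not cover small changes or genes with low counts. The alternatives were DESeq2 1.42.0, RLE size factors, filterByExpr, no filter, limma 3.58.1 on log2(count + 1) or on log2 CPM, the replicate block and leaving out each sample.

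Pairing by the replicate number of the labels was checked on deviations from group means. Pairs of the same number correlated above 0.1 in 9 of 9 cases in cDC1s (median 0.32) and 7 of 7 in cDC2s (median 0.43), and across cell types in 19 of 24.

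The 10 genes and all lists were chosen with earlier results of these data known. All 10 were tested in every comparison. From each context list, at most 2 called genes per cell type were named, those with the largest change whose mean log2 CPM was 3 or more, and for likeness the genes with the highest Pearson r. The likeness result for Junb is not reported here, and Fosl2, called between media in no main comparison, had no likeness measure. The Atf3 values between debris types were added after they were seen.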

Additional observations from a re-analysis of the deposited data

Results flagged for a closer look

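The responses of cDC1s and cDC2s to the same medium differed by the interaction test in 7 cases, given on the log2 scale as cDC1s minus cDC2s with edgeR's adjusted p. For BimS against WT, Fosl1 differed by 1.47 (adjusted p = 0.00645, and 1.31, adjusted p = 0.0603, without cDC1 WT replicate 3). Fosl1 rose in every sample with debris in both cell types, from a WT level of 0.668 CPM in cDC1s and 3.86 CPM in cDC2s. Egr2 differed by 1.34 for BimS (adjusted p = 0.000495) and by 1.13 for RIPK3 (adjusted p = 0.00493), and no left-out sample ended these calls. Egr1 differed by 1.39 for BimS (adjusted p = 0.0378), with 3 of 3 BimS samples above WT in cDC1s and 3 of 3 below in cDC2s. This was lost without cDC1 WT replicate 1, 2 or 3, cDC1 BimS replicate 1 or 3, cDC2 WT replicate 1 or 2 or cDC2 BimS replicate 1, 2 or 3 (1.24 to 1.47, adjusted p from 0.0521 to 0.119).

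Egr3 differed by a fitted 4.54 for BimS (adjusted p = 0.0293), which is no measure of size because the cDC2 samples with BimS held 0 to 1 counts. It was lost without cDC1 WT replicate 1, 2 or 3, cDC1 BimS replicate 3, cDC2 WT replicate 2 or 3, cDC2 BimS replicate 1, 2 or 3 or cDC2 RIPK3 replicate 1 (3.95 to 4.92, adjusted p from 0.0503 to 0.147). For RIPK3 against WT, Fosl1 differed by 1.32 (adjusted p = 0.017) and lost the call without cDC1 WT replicate 2 or 3 or cDC2 RIPK3 replicate 1 (1.07 to 1.21, adjusted p from 0.0811 to 0.12). Jun differed by 0.42 for RIPK3 (adjusted p = 0.0223) and lost the call without cDC1 WT replicate 2 or 3, cDC1 RIPK3 replicate 1 or 2, cDC2 WT replicate 2 or cDC2 RIPK3 replicate 1 or 2 (0.39 to 0.42, adjusted p from 0.0502 to 0.123). Limma on log2 counts made no call for Jun with RIPK3 (0.48, adjusted p = 0.391) or for Egr1 with BimS (1.38, adjusted p = 0.0599). All 7 values rest on a cDC2 RIPK3 group of 2 samples or a cDC2 BimS group of 3.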

How the results depend on the processing

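DESeq2, RLE size factors, filterByExpr and limma on log2 CPM kept the direction and call of all 44 calls for the 10 genes over the 10 comparisons, and no filter ended 1 of them and added Fosb with BimS in cDC1s and Fosl2 with BimS in cDC2s. Limma on log2 counts without normalization is the alternative closest to the test in the study's methods. It ended 13 calls and turned Junb between the cell types to 0.088 (adjusted p = 0.219). It called 1 of the 10 genes for RIPK3 against BimS in cDC1s, 3 for RIPK3 against WT in cDC2s and 0 for RIPK3 against BimS in cDC2s. Over all genes it made 403, 1600 and 148 calls in these comparisons. The cause was not tested. With the replicate block, 44 of 44 calls stayed and 9 were added: the counts were 5 for BimS against WT and 4 for RIPK3 against BimS in cDC2s, and 1 for the interaction of RIPK3 against BimS (Jun, 0.40, adjusted p = 0.0277), and Fos was added in the interaction of RIPK3 against WT (-0.29, adjusted p = 0.0415). Across cell types same-numbered samples correlated above 0.1 in 19 of 24 pairs and others in 5 of 48, and no source used here says what a number marks. Leaving out single samples ended 58 of 523 called values and turned none. The number of the 10 genes called ranged from 3 to 5 for RIPK3 against WT and from 0 to 1 for RIPK3 against BimS in cDC2s, and from 1 to 4 and from 1 to 3 for the BimS and RIPK3 interactions. Over all genes, calls between debris types in cDC2s numbered 73, and 46 with filterByExpr, 141 with DESeq2, 148 with limma on log2 counts, 300 with no filter and 2755 with the block. Without 1 sample they numbered 0 (RIPK3 replicate 2) to 214 (WT replicate 3). In cDC2s, BimS against WT had 783, 896 and 878 calls without WT replicate 2 or BimS replicate 1 or 2, and RIPK3 against WT 916, 658 and 622 without WT replicate 2 or RIPK3 replicate 1 or 2. In cDC1s, RIPK3 against BimS had 489 without BimS replicate 3. The block gave 4103 for BimS against WT in cDC2s (1349 without) and 1730 between debris types in cDC1s (810 without), where limma on log2 counts gave 403. For BimS against WT in cDC1s that method gave 1510 (2576 by edgeR), and for RIPK3 against WT in cDC2s the block gave 4126 (1387 without). The BimS and RIPK3 interactions had 166 and 217 calls, ranging from 67 to 443 and from 109 to 449 over all alternatives, and that of RIPK3 against BimS had 6 (0 to 27). Depth limits Egr3 in cDC2s (0 to 6 counts), Egr1 (19 to 127) and Fosl1 in cDC1s with WT (11 to 18).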
